A study of Homo sapiens with 2 samples.

Results

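Apart from the exceptions named below, the genes described here encode molecular chaperones. These are the HSP70, HSP90 and small heat shock proteins, the J proteins that deliver substrates to HSP70, the chaperonins and prefoldin. They were chosen by current gene symbol, namely every symbol starting with HSPA, HSPB, HSP90, DNAJ or PFDN, every CCT symbol followed by a number, and HSPD1, HSPE1, HSPH1 and TCP1. The rule found 68 symbols with a named probe, of which 63 had a value at 3 h or 6 h, out of 11057 named genes with a value in the whole series. All 63 were measured at 6 h and 62 at 3 h, and DNAJC15 was the gene with a value at 6 h only. The 5 symbols without a value were DNAJA4, DNAJB8, DNAJC5G, DNAJC6 and HSPB2. HSPBAP1, which encodes a protein that binds HSPB1 and is not itself a heat shock protein, entered by the letters of its symbol. The pseudogenes HSPA7 and HSP90AA2P entered likewise, and all of these are counted among the chaperone genes below.

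The samples came from 293T, an established line of human embryonic kidney origin, grown in medium with serum. Cells exposed to 10 µM Y27632 for 3 h and for 6 h, labelled with Cy3, were each hybridised against untreated 293T cells, given a time of 0 h and labelled with Cy5. The sample titles name only control and a time, so the exposure rests on the Cy3 channel, whose source and agent both give Y27632. Y27632 inhibits the kinases ROCK1 and ROCK2, which drive actomyosin contraction. The series held 2 arrays, 1 per time, without a dye swap or a vehicle control, so exposure, time in culture and handling cannot be told apart, and no p-value can be given.

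Each value is a deposited log ratio of treated and untreated cells, taken as log2. The labels do not say which channel was the numerator, so a positive value may stand for a higher or a lower level in treated cells, and each sign is given as deposited. Both arrays may have used the same untreated RNA, so the values at the 2 times are given side by side and are not independent of each other. Where a gene had several probes, these scattered about its mean with an SD of 0.31 on the 3 h array and 0.33 on the 6 h array (572 genes), and this spread between probes is the only error at hand for a single gene. A size of 1.5-fold, or 0.58 on the log2 scale, is used below as a guide and corresponds to 1.89 of these SDs at 3 h and 1.76 at 6 h. Log ratios hold no level, so whether 293T cells carry the markers of their lineage cannot be read from them.

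Chaperones bind unfolded or newly made proteins and help them to fold. HSP70 works in cycles of ATP hydrolysis, which J proteins stimulate and nucleotide exchange factors of the HSP110 type reset. HSP90 acts later, on kinases and receptors that are nearly folded. The ring-shaped chaperonin TRiC, also called CCT, encloses substrates such as actin and tubulin, which prefoldin hands over to it, and actin is also the filament whose contraction the ROCK kinases control. Heat and other stress that unfolds proteins activates the transcription factor HSF1, which binds heat shock elements, inverted repeats of GAA, before many of these genes.

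Across the chaperone genes the values leaned to the positive side on each array. At 3 h, 43 of 62 lay above 0 (69.4%), against 51.3% of all 10810 named genes, and their median was 0.15, against 0.02 for all genes. At 6 h, 44 of 63 lay above 0 (69.8%), against 51.5% of 10716, and the median was 0.16, against 0.02. The spread among the chaperone genes was close to that of the array, with an SD of 0.37 at 3 h and 0.34 at 6 h, against 0.36 on each array for all genes. At 3 h, 7 of the 62 lay at or past 1.5-fold on the positive side (11.3%), where the background over all genes was 4.88%, and 2 on the negative side (3.23%), where it was 4.49%. At 6 h, 10 of the 63 did so on the positive side (15.9%, background 5.63%) and 0 on the negative side (background 4.24%). None reached 2-fold on either array, a size that 1.61% of all genes reached at 3 h and 1.43% at 6 h. This rests on the assumed base. Read as natural logarithms, 5 positive chaperone genes would pass 2-fold at 3 h (8.06%, all genes 2.87%) and 2 negative ones (3.23%, all genes 2.99%). At 6 h, 5 positive ones would pass it (7.94%, all genes 3.23%). On the positive side, 14 would pass 1.5-fold at 3 h (22.6%, all genes 11.7%) and 16 at 6 h (25.4%, all genes 12.9%). In RNA from whole cultures, fewer cells with a transcript and less of it per cell cannot be told apart. These shares describe 1 array each, and the list was assembled with results of the same arrays known.

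The promoters of the chaperone genes were read from RefSeq (GRCh38.p14), which had an entry for 55 of the 63 genes, and the 250 bases before each start site were searched on both strands. The heat shock element was taken as GAA and then TTC with 2 bases between them, for 2 units, or as GAA, TTC and GAA spaced likewise, for 3 units, so that a 3-unit match always holds a 2-unit one. Of the 55 genes, 4 had a 3-unit match (7.27%), against 40 of 8872 array genes with an entry (0.451%), and 12 had a 2-unit match (21.8%), against 551 (6.21%). Of all 35116 promoter entries, 0.441% held the 3-unit and 5.78% the 2-unit letters. The ER stress element is CCAAT and CCACG with 9 bases between them, and through it genes of the endoplasmic reticulum respond to unfolded protein. It was found in 1 of the 55 (1.82%), HSPA5, against 6 of 8872 array genes (0.0676%) and 0.0740% of all entries. The matching stretches are shown because they hold the element that HSF1 recognises or, for HSPA5, the ER stress element. They read 5′ to 3′ on the gene's strand, with the elements in capitals, and include the 1 promoter with 2 separate 2-unit matches and no 3-unit match, that of DNAJB1.
HSPA8, chr11:123062149-123062386, minus strand: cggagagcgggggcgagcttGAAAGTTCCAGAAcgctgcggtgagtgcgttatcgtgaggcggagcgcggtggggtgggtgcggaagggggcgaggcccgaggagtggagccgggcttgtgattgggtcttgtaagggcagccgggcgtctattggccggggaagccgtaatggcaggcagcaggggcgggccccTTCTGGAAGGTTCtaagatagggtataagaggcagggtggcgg
HSP90AB1, chr6:44247748-44247873, plus strand: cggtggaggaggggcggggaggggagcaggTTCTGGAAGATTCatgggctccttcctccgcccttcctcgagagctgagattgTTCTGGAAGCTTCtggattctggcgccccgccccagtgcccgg
HSPD1, chr2:197500038-197500090, minus strand: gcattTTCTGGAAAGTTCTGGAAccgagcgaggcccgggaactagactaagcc
DNAJB6, chr7:157336843-157336915, plus strand: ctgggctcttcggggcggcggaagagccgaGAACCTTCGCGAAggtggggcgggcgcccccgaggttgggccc
DNAJB1, chr19:14518407-14518504, minus strand: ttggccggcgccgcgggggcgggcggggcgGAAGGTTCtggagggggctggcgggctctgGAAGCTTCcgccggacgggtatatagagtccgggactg
HSPA5, chr9:125241361-125241439, minus strand: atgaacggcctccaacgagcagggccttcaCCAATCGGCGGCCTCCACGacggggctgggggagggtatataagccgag
The genes whose stretches are shown did not all share a value. HSPD1 had 0.40 at 3 h and 0.40 at 6 h, and DNAJB6 had 0.13 and 0.02. HSPA8 had −0.52 and 0.05, close to the −0.53 and 0.02 of DNAJB1. HSP90AB1 was negative at each time. HSPA5, shown for the ER stress element, was positive at each time, as described below. A match of letters describes the promoter and does not show that HSF1 binds there.

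The HSP70 and HSP110 genes held both the most negative and several of the most positive values of all chaperones. Of the 12 measured, 7 lay above 0 at 3 h and 10 at 6 h, with medians of 0.16 and 0.33. The 3 genes of the HSP110 type within the symbol rule were positive at each time. Their products release ADP from HSP70 and hold unfolded chains. HSPA4L had 0.74 at 3 h, a 1.67-fold size, and 0.79 at 6 h, a 1.73-fold size, and HSPA4 had 0.69 and 0.68. HSPH1, the heat-inducible form, had 0.44 and 0.39. These 3 genes had 1 probe each and their values at the 2 times lay within 0.05 of each other. HYOU1, an HSP110 relative of the endoplasmic reticulum outside the symbol rule, had −0.01 at 3 h and 0.02 at 6 h.

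HSPA8 encodes HSC70, the constitutive cytosolic HSP70 that also uncoats clathrin vesicles. It had −0.52 at 3 h and 0.05 at 6 h, on 1 probe. HSPA2, an HSP70 enriched in testis, had −0.97 at 3 h, a 1.96-fold size reached on the negative side by 1.03% of all genes, and −0.47 at 6 h. It was the lowest chaperone gene at both times. HSPA7, a pseudogene nearly identical to the stress-induced HSPA6, had −0.73 at 3 h and 0.81 at 6 h, so its sign differed between the arrays. HSPA6, and the main inducible genes HSPA1A and HSPA1B, were named for no probe by the platform annotation, and a probe for HSPA7 may not tell it from HSPA6. A difference of the log ratios of 1.54 between the times, 2.91-fold, was the widest among the chaperone genes.

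The HSP70 genes of other compartments lay between these. HSPA5, or BiP, the HSP70 of the endoplasmic reticulum, had 0.42 at 3 h and 0.35 at 6 h. HSPA13, a microsomal form, had 0.33 and 0.51. HSPA9, the mitochondrial mortalin, had 0.16 at each time. HSPA14, which forms the ribosome-associated complex with DNAJC2, had −0.16 and −0.18, on the other side of 0 from that partner. The distant relatives HSPA12A and HSPA12B lay within 0.30 of 0, with 0.15 and −0.09 at 3 h, and 0.30 and 0.13 on the later array. A list of 14 HSP70 and HSP110 genes left out HSPA5 and HSPA9 but held HSPA13, which the endoplasmic reticulum list below also holds. Its 10 measured genes had a 3 h median of 0.03, or 0.15 without HSPA7, and a 6 h median of 0.34.

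**Figure D1:**
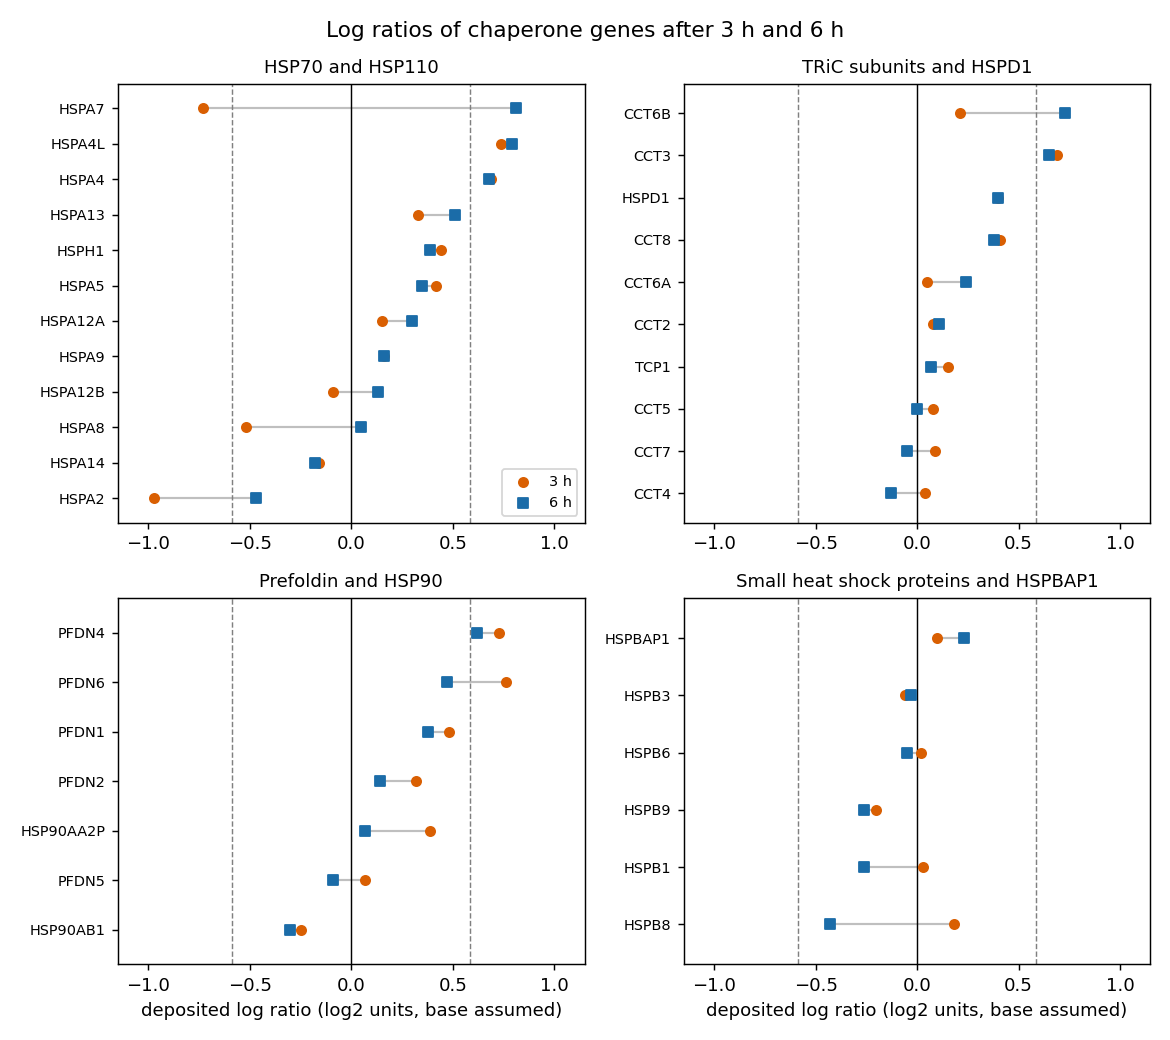
Log ratios as deposited (horizontal axis, log2 units with the base assumed) for 35 chaperone genes other than J proteins, with circles for 3 h, squares for 6 h and a grey line joining the values of a gene. Dashed lines mark 1.5-fold; HSPA4, HSPA4L and CCT3 lie past it on the right at both times, PFDN4 likewise, while HSPA7 crosses from one side to the other.

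Within the symbol rule, HSP90 was represented by its constitutive form. HSP90AB1 had 2 probes, with −0.20 and −0.29 at 3 h and −0.26 and −0.34 at 6 h, so all 4 readings were negative and the probes lay closer together than the array's usual probe spread. HSP90AA2P, a pseudogene of the inducible HSP90AA1, had 0.39 and 0.07, and its probe may also read HSP90AA1, for which the platform annotation named no probe. HSP90B1, the form in the endoplasmic reticulum, had no named probe either. TRAP1, the mitochondrial form, lies outside the symbol rule and had −0.13 at 3 h and −0.14 at 6 h.

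Prefoldin stood on the positive side with a median of 0.48 at 3 h over 5 subunits, all above 0, and of 0.38 at 6 h, with 4 of 5 above 0. Prefoldin is a hexamer that captures unfolded actin and tubulin as they leave the ribosome. PFDN6 had 0.76 at 3 h and 0.47 at 6 h, and PFDN4 had 0.73 and 0.62, both beta-type subunits. PFDN1, also of the beta type, had 0.48 and 0.38, and PFDN2 had 0.32 and 0.14. PFDN5, an alpha-type subunit that also binds the MYC protein, had 0.07 and −0.09 and lay nearest to 0. The other alpha-type subunit gene, VBP1, lies outside the symbol rule and had no named probe. For each of the 5 subunits the 6 h value was the smaller, by 0.10 to 0.29, which is less than the probe spread of 0.30 for a difference between the times.

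The subunits of TRiC did not share one value. All 9 genes were above 0 at 3 h and 6 of 9 at 6 h, yet the medians were 0.09 and 0.11, since most lay close to 0. CCT3, the gamma subunit, had 0.69 at 3 h and 0.65 at 6 h, 1.61-fold and 1.57-fold, and CCT8, the theta subunit, had 0.41 and 0.38. The other ring subunits TCP1, CCT2, CCT4, CCT5, CCT6A and CCT7 ranged from 0.04 to 0.15 at 3 h and from −0.13 to 0.24 at 6 h. Each of these is 1 part of the same ring, where every subunit has a fixed place. CCT6B, a testis form of the zeta subunit, had 0.21 and 0.73, while its widely expressed counterpart CCT6A had 0.05 and 0.24. Each TRiC gene rested on 1 probe, so a value particular to CCT3 cannot be told apart from one particular to its probe. The mitochondrial chaperonin HSPD1, or HSP60, had 0.40 at each time, and its lid HSPE1 had no named probe.

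The small heat shock proteins, which hold unfolding proteins in oligomers without using ATP, lay within 0.20 of 0 at 3 h and were all below 0 at 6 h. Over 5 genes the medians were 0.02 and −0.26. Of all named genes, 47.3% lay below 0 at 6 h. HSPB8, which works with BAG3 in the removal of damaged cytoskeletal proteins, had 0.18 at 3 h and −0.43 at 6 h. HSPB1, or HSP27, which binds actin filaments, had 0.03 and −0.26. HSPB9 had −0.20 and −0.26, and HSPB3 and HSPB6 lay within 0.06 of 0 at both times. HSPBAP1, the binding partner of HSPB1, had 0.10 and 0.23.

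The J proteins carry a domain that switches on the ATPase of HSP70 and otherwise differ in the place and the substrate to which they bring it. The 16 DNAJC genes measured at 3 h had a median of 0.30 with 11 above 0, and the 17 at 6 h had 0.31 with 12 above 0. DNAJC10, a disulfide reductase of the endoplasmic reticulum, had the highest value of any chaperone gene at 3 h, 0.88, a 1.84-fold size reached by 1.18% of all genes, and 0.76 at 6 h. DNAJC7, which bridges HSP70 and HSP90, had 0.70 and 0.72. DNAJC2, which sits at the ribosome exit with HSPA14, had 0.57 and 0.65, and DNAJC28 had 0.36 and 0.65.

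Several other DNAJC genes lay between 0 and 0.5. DNAJC13, of endosome sorting, had 0.39 and 0.43, DNAJC12 had 0.39 and 0.38, DNAJC4 had 0.40 and 0.31, and the splicing-associated DNAJC8 had 0.23 and 0.29. DNAJC9, a histone chaperone, showed how far single probes can differ: 1 probe had 0.65 and 0.63 and the other 0.11 and 0.00. Its mean of 0.38 and 0.32 was therefore short of 1.5-fold, which the first probe alone would pass. DNAJC14 had 3 probes, from −0.26 to 0.11 at 3 h and from −0.07 to 0.12 at 6 h. The lowest DNAJC genes were DNAJC5B, a relative of the cysteine string protein DNAJC5, at −0.33 and −0.37, and the mitochondrial DNAJC30 at −0.22 and −0.39. DNAJC5 itself had 0.08 and 0.16.

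The DNAJA and DNAJB genes hold the classic HSP40 cochaperones. The 8 DNAJB genes had a 3 h median of 0.00, with 4 above 0, and a 6 h median of 0.13, with 6 above 0, and the 3 DNAJA genes had −0.09, with 1 above 0, and 0.13, with 3 above 0. DNAJB1, the main stress-induced HSP40, had −0.53 at 3 h and 0.02 at 6 h, values close to the −0.52 and 0.05 of HSPA8, to which it delivers substrates. Its close relatives, with 1 probe each, differed from each other. DNAJB4 had −0.13 at 3 h and 0.50 at 6 h, and DNAJB5 had −0.24 and −0.25. The 2 arrays gave DNAJB5 nearly one value and DNAJB4 opposite signs, though the 3 h value of DNAJB4 lay within the probe SD of 0.31. DNAJB2 had −0.44 and −0.19. On the positive side, DNAJA1, a farnesylated HSP40 of the cytosol, had 0.44 and 0.57, while DNAJA2 had −0.09 and 0.13.

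**Figure D2:**
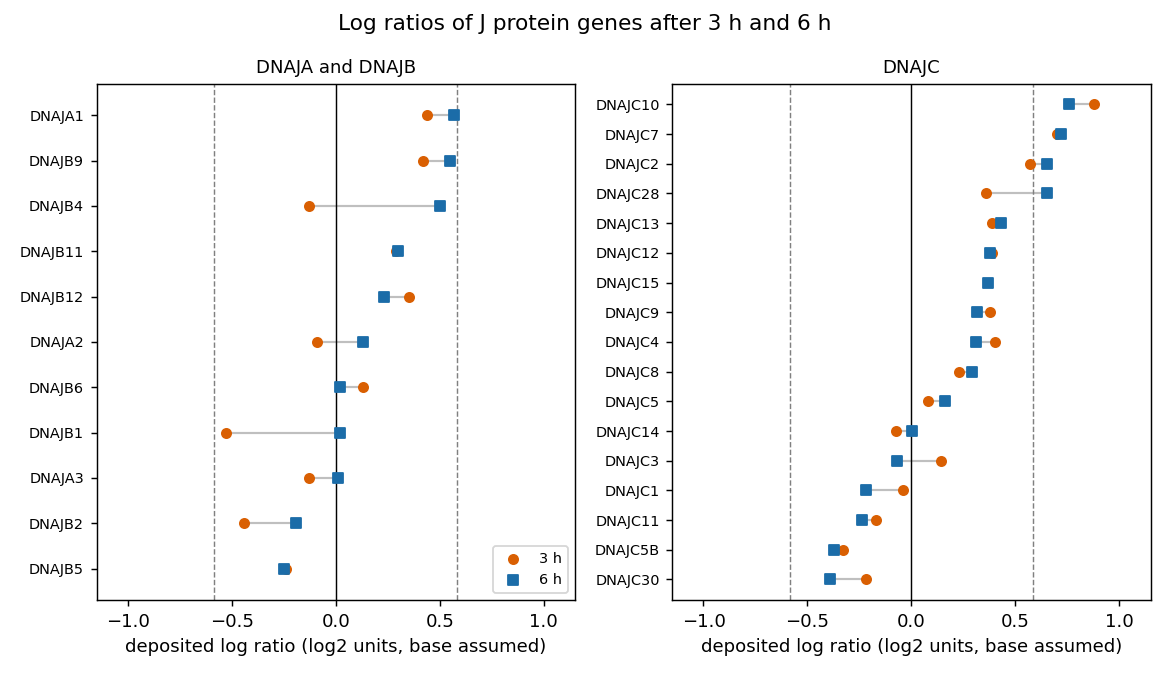
Log ratios as deposited (horizontal axis, log2 units with the base assumed) for the 28 J protein genes, with circles for 3 h and squares for 6 h; dashed lines mark 1.5-fold. DNAJC10 and DNAJC7 lie past 1.5-fold at both times, and DNAJB1 and DNAJB4 show the widest gaps between the times; DNAJC15 has a square only.

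By compartment, the median of the endoplasmic reticulum list was above that of the mitochondrial list at each time, a difference that was not tested. It depends on how the lists were drawn, since other measured chaperones of each compartment were counted elsewhere. In the endoplasmic reticulum, CALR had −0.20 at 3 h and 0.04 at 6 h, CANX 0.02 and 0.16, HYOU1 −0.01 and 0.02, and SDF2L1 −0.04 and −0.16. In mitochondria, GRPEL1 had 0.59 and 0.32, GRPEL2 0.49 and 0.46, and TRAP1 −0.13 and −0.14. In an endoplasmic reticulum list with 8 measured genes, the median was 0.34 at 3 h (7 above 0) and 0.33 at 6 h (6 above 0). Besides DNAJC10, HSPA5 and HSPA13, the list held DNAJB9, a cofactor of the degradation of misfolded proteins, at 0.42 and 0.55, DNAJB11, a partner of BiP, at 0.29 and 0.30, and DNAJB12 at 0.35 and 0.23. DNAJC1 and DNAJC3 lay nearer to 0, at −0.04 and 0.14 at 3 h and −0.22 and −0.07 at 6 h. Genes of the wider ER stress response, among them ATF4, XBP1, DDIT3 and CALR, had medians of −0.01 and 0.04 over 17 genes, and 0 lay at or past 1.5-fold at either time, where the background over both signs was 9.36% at 3 h and 9.86% at 6 h. The mitochondrial list, with HSPD1, HSPA9, DNAJA3, DNAJC11, DNAJC15 and DNAJC30, had medians of −0.13 over 5 genes at 3 h and 0.09 over 6 at 6 h.

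Regulators and partners of the chaperones lie outside the symbol rule. HSF1, the activator of the heat shock response, had 0.60 at 3 h and 0.50 at 6 h, and HSF2, a related factor, had 0.47 and 0.38. The list of factors and regulators had medians of 0.24 and 0.17 over 4 measured genes, and within it HSF2BP, a binding partner of HSF2, had −0.38 and −0.87. The 17 measured genes of a list of HSF1 targets, 10 of which are chaperone genes counted above, had medians of 0.13 and 0.05, with 12 and 13 above 0. HSPA4L was the 1 gene of that list at or past 1.5-fold at each time, a share of 5.88% near the background of 4.88% and 5.63% on that side. BAG3, a nucleotide exchange factor of HSP70 and an HSF1 target, had −0.37 and 0.01. CRYAB, a small heat shock protein under another symbol, had 0.24 and −0.45.

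Among cochaperones of HSP70 and HSP90, 20 of 29 genes lay above 0 at 3 h and 23 of 29 at 6 h. The share over all genes was 51.3% and 51.5%, and the cochaperone medians were 0.16 and 0.08. At or past 1.5-fold on the positive side were 3 genes at 3 h (10.3%, background 4.88%) and 2 at 6 h (6.90%, near the background of 5.63%), and 0 on the negative side (background 4.49% and 4.24%). They were AHSA2P, a homologue of the HSP90 activator AHSA1 annotated as a pseudogene, at 0.60 and 0.83, PPID, a cyclophilin that binds HSP90, at 0.64 and 0.56, GRPEL1, the exchange factor of mitochondrial HSP70, at 0.59 and 0.32, and the phosphatase PPP5C at 0.54 and 0.68. AHSA1 itself had 0.11 and 0.02. Prefoldin-like proteins and TRiC cofactors had medians of 0.21 over 8 genes and 0.03 over 7, and TXNDC9, which binds TRiC, had 0.58 and 0.63. Tubulin folding cofactors had 0.15 and −0.03 over 5 genes. Of 25 actin and tubulin genes, the clients of TRiC, 4 had a value (TUBB3, TUBB6, TUBG1 and TUBG2), with medians of −0.09 and −0.08, so the values of the chaperonin cannot be set beside those of its main clients. HSF2BP, CRYAB, PPID, GRPEL1, PPP5C, AHSA1 and TXNDC9 were named after their values had been seen. The same holds for HYOU1, CALR, CANX, SDF2L1, GRPEL2 and TRAP1.

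**Figure D3:**
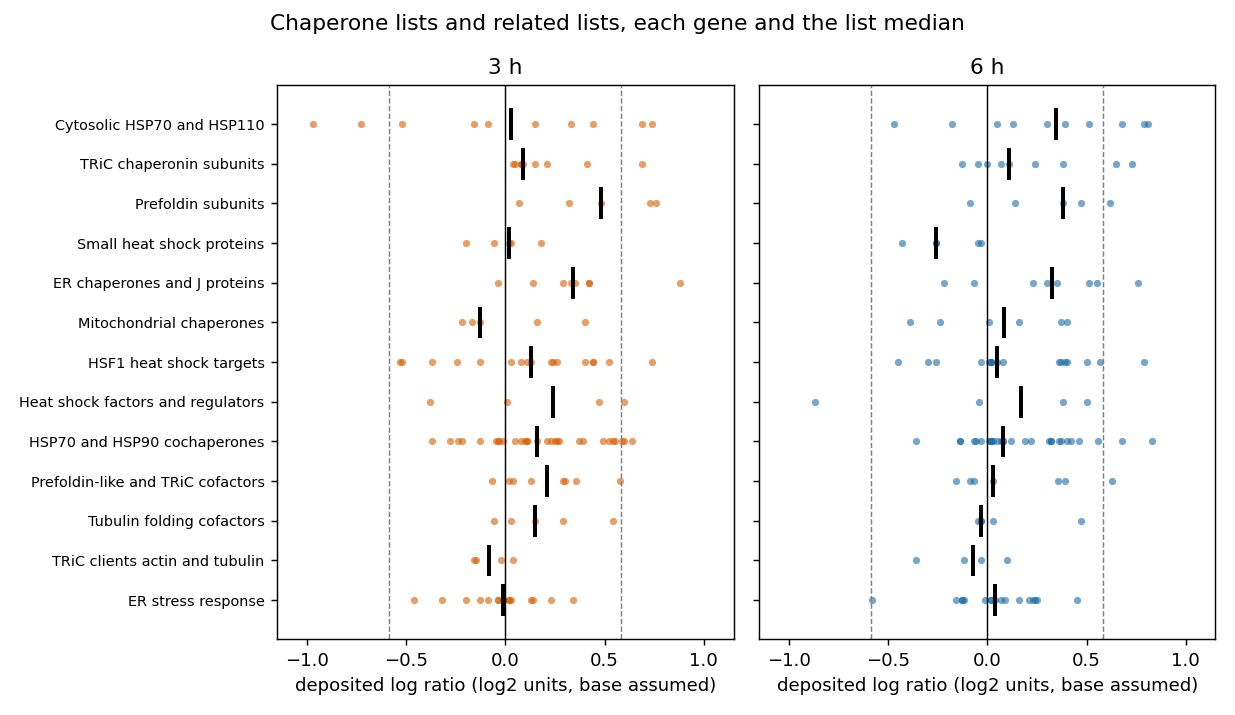
Log ratios as deposited (horizontal axis, log2 units with the base assumed) at 3 h and 6 h for the genes of 13 lists, with a point for each gene and a black bar for the list median; dashed lines mark 1.5-fold. The prefoldin and endoplasmic reticulum chaperone medians lie farthest to the right at 3 h (0.48 and 0.34). The ER stress response median lies near 0 at both times. The HSP70 and HSP110 list labelled cytosolic also holds HSPA13.

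The difference of the log ratios, 6 h minus 3 h, cancels an untreated RNA and a dye bias common to both arrays, though time and array cannot be told apart in it. Over the 62 chaperone genes with both values the median was −0.01, the same as over all 10469 genes. Above 0 lay 27 (43.5%, all genes 46.9%) and below it 33 (53.2%, all genes 51.2%). A difference of at least 1.5-fold was seen for 2 genes on the positive side (3.23%, background 3.05%) and 1 on the negative side (1.61%, background 2.70%), shares near the background. HSPA7 had 1.54, DNAJB4 0.63 and HSPB8 −0.61. Just short of that size were HSPA8 at 0.57, DNAJB1 at 0.55, CCT6B at 0.52 and HSPA2 at 0.50. For HSPA8, DNAJB1 and HSPA2 this reflects a negative value at 3 h that lay nearer to 0 at 6 h, while CCT6B and DNAJB4 were farther from 0 at 6 h. The HSF1 target list as a whole had a median difference of −0.05, with 7 genes above 0 and 9 below; besides HSPA8, DNAJB1 and DNAJB4 it held BAG3 at 0.38, but also CRYAB at −0.69 and HSPB1 at −0.29. HSPD1 and HSPA9 had differences of 0.

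**Figure D4:**
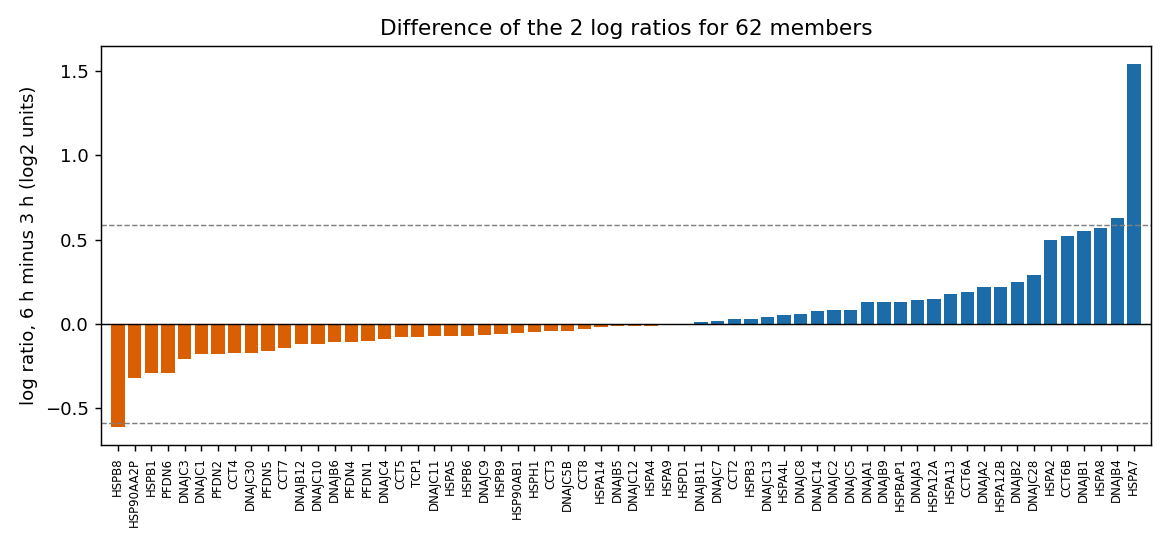
Difference of the log ratios, 6 h minus 3 h (vertical axis, log2 units), for the 62 chaperone genes with both values, in rising order; dashed lines mark 1.5-fold. Most bars are short, HSPA7 reaches 1.54 at the right end, and HSPB8 is the one gene below the lower line.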

How the data were processed

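Two-colour arrays (1 per time) were analysed from the deposited table. The log2 values were deposited by the authors as ratios of the channels of each array, centred on a median of 0 on both. Base 2 is assumed here, and the labels and the table do not state the numerator, background correction, normalization, spot filter or build. Spot brightness was not analysed here, so values from faint spots were not set apart. Precision is limited by having 1 array per time. Values were present for 20503 of 24267 probes at 3 h and 20337 at 6 h. The platform annotation named 13395 probes with 1 symbol and 0 with several, and left 10872 unnamed; 10822 symbols were current in RefSeq (GRCh38.p14), 2446 had a unique newer symbol and 127 stayed as they were. Probes of a gene were averaged (Python 3.11.15, pandas 2.3.3, numpy 2.4.6). Of the 63 genes, 60 had 1 probe, and 9 had a symbol updated from an older name.

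Genes at or past 1.5-fold and 2-fold were counted by sign beside all named genes, and list medians were computed; counting was tested on simulated data. No test between groups was possible with 1 array per time. Members and lists were chosen with earlier results of these data known. Named were all HSP90, TRiC, prefoldin, HSPD1, HSPE1 and HSPA genes with a value, other members past 1.5-fold, with several probes or with the 5 largest differences, list genes past 1.5-fold at both times, and HSF1, HSF2, VBP1 and BAG3; remaining members were added to complete families. Alternatives were the probe farthest from 0, listed symbols, centring on named genes, genes on both arrays, genes with 1 probe, leaving out HSPBP1 and HSPBAP1, means, natural logarithms and, chosen after seeing the data, leaving out 2 pseudogenes. A search of protein sequences was not run.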

Additional observations from a re-analysis of the deposited data

Results flagged for a closer look

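For 3 chaperone genes the sign of the log ratio differed between 3 h and 6 h and the values lay at least 1.5-fold apart, with 1 array per time and no test of the difference. Their share was 4.84% of 62, against 3.74% of all 10469 genes. HSPA7 had a difference of 1.54, 6 h minus 3 h, DNAJB4 0.63 and HSPB8 −0.61. Each rested on 1 probe, and the probe spread of a difference was 0.30.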

How the results depend on the processing

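With natural logarithms in place of base 2, 8 of 12 counts rose by over 1.5 times. At 1.5-fold there were 14 positive and 5 negative at 3 h (22.6% and 8.06%, against 11.7% and 9.11% of all genes), 16 and 2 at 6 h (25.4% and 3.17%, against 12.9% and 9.47%) and 6 positive differences (9.68%, against 6.44%). At 2-fold there were 5 positive and 2 negative at 3 h (8.06% and 3.23%, against 2.87% and 2.99%) and 5 positive at 6 h (7.94%, against 3.23%). The counts of 2-fold negative genes at 6 h, of negative differences and of 2-fold differences did not move. Without the pseudogenes HSPA7 and HSP90AA2P, 1 negative gene was left at 3 h, 1 positive difference at 1.5-fold and 0 at 2-fold. The median of the HSP70 and HSP110 list at 3 h was then 0.15. With symbols as listed it was −0.09. With means in place of medians, TRiC had 0.20 at 3 h and 0.22 at 6 h, HSF1 targets 0.15 and cochaperones 0.18 at 6 h, and factors and regulators −0.0075 at 6 h. For the difference, means were 0.0433 for all members, 0.313 for the HSP70 and HSP110 list and 0.0421 for HSF1 targets. Mean and median differed in sign for all members, all named genes, TRiC and HSF1 targets in the difference, factors and regulators and tubulin cofactors at 6 h, and mitochondrial chaperones, DNAJA genes, small heat shock proteins and the HSP70 and HSP110 list at 3 h. The cause was not tested. The probe farthest from 0 gave DNAJC9 0.65 and 0.63. Counts and medians moved by less than 1.5-fold and the probe error under the probe farthest from 0, centring, genes on both arrays, genes with 1 probe (where the HSP90 list had no value) and without HSPBP1 and HSPBAP1. HSPBP1 had no named probe and HSPBAP1 was in none of the lists, so leaving them out could not move a list median. No paired analysis was possible because the labels carry no replicate numbers and each time has 1 array. With 1 array per time, no difference can be set against the spread between cultures.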
